A study of Mus musculus with 6 samples.

Results

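The genes described here encode the ligand, a receptor, the feedback inhibitors and the immediate targets of FGF-ERK signalling, chosen by symbol from the count files of a comparison between WT and *Patz1* knockout (KO) mouse embryonic stem cells (ESCs). They are *Fgf4*, *Fgfr1*, *Spry2*, *Spry4*, *Spred1*, *Dusp4*, *Dusp6*, *Egr1*, *Etv4* and *Etv5*, 10 of 23420 symbols, and all 10 were found in every file. RNA-seq was performed on E14 ESCs, 3 WT and 3 *Patz1* -/- libraries. Both genotypes were grown in the same medium with LIF and inhibitors of MEK1/2 (PD0325901) and GSK3 (CHIR99021), so that no library shows these genes without MEK inhibition. The KO was made with CRISPR/Cas9, and the series design counts it as 1 cell line, although several KO clones were made in the study. Which clone or clones gave these libraries was not given in the sources used here, so that genotype cannot be told apart from properties of the clones used.

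FGF ligands bind receptor tyrosine kinases at the cell surface, and the receptors pass the signal through RAS, RAF and MEK to the kinase ERK. ERK switches on transcription factors of the EGR and ETS families, and also a set of inhibitors that damp the same cascade: Sprouty and SPRED proteins act upstream at the level of RAS and RAF, and DUSP phosphatases remove the activating phosphates from MAP kinases. In ESCs, FGF4 made by the cells themselves drives ERK and readies them to leave the naive state, and MEK inhibition is used to hold them there.

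*Patz1* stood at 1838, 1983 and 1843 normalized counts in WT and at 853, 862 and 862 in KO, so each KO library was below each WT library. Normalized counts are read counts divided by the size factor of the library, and where 3 values follow each other they are those of replicates 1, 2 and 3, in that order. Depth ran from 37573923 to 47721070 counts in replicates 1 and 2, while both libraries of replicate 3 were shallow (11040756 and 11420268). Replicate 3 also stood apart by its ribosomal RNA, with 12.5% to 14.4% of counts on *Rn45s*, against 1.79% to 3.03% in the other 4 libraries. Of 8 ESC markers, among them *Pou5f1*, *Nanog* and *Zfp42*, all had at least 2856 normalized counts in the mean and 0 passed the threshold between genotypes (DESeq2, with 1 at an unadjusted p under 0.05). With replicate number as a term in the model (a block, used below), *Pou5f1*, *Zfp42* and *Tdgf1* passed, higher in KO (adjusted p 0.0405, 0.0298 and 0.00881). Of all genes, 14.6% passed with this block, and 6.68% passed as higher in KO. The sums of the 8 did not overlap, at 134269 to 138774 normalized counts in WT and 144553 to 150016 in KO. Markers of other cells were mostly low. The 8 fibroblast markers summed to between 233 and 261 normalized counts in WT and between 277 and 291 in KO, and *Thy1* passed, higher in KO (58.3 to 79.8 in WT and 115 to 156 in KO). The other 3 with an adjusted p did not pass and had negative log2 fold changes (*Col1a1* -0.23, *Col1a2* -0.90 and *Pdgfrb* -0.16), and *Col3a1*, *Postn* and *Dcn* were at or near 0. The 8 primitive endoderm markers summed to 2146 to 2494 in WT and 1988 to 2230 in KO, mostly from *Lama1*. *Dab2* passed, higher in KO. The other 6 of the 7 with an adjusted p did not pass and had negative log2 fold changes, among them *Sox17* (-0.83) and *Pdgfra* (-0.51), and *Foxa2* had 0 counts in each WT library and between 4.15 and 12.4 normalized counts in KO. The sums were 795 to 893 against 444 to 758 for 6 neuroectoderm markers, of which 0 passed (DESeq2, 1 at an unadjusted p under 0.05) and *Nes* passed with the block, lower in KO (adjusted p 0.000235), and 906 to 1212 against 702 to 1036 for 6 mesoderm markers, of which *Kdr* passed, lower in KO. The part of such cells in the values below was not tested, and fewer cells of a type cannot be told apart from less RNA per cell.

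The upstream sequences shown are those of *Dusp6*, *Spred1* and *Fgf4*, the 3 genes that passed the test between genotypes once replicate number was a block (DESeq2). Each is the 250 bases before the RefSeq start site on GRCm38.p6, the build of mm10, and all lie on the plus strand. Capitals mark the letters CGGAA or their reverse complement TTCCG, which hold the GGAA core that ETS factors such as ETV4 and ETV5 recognise. Stretches of GGAA without the C before it are not marked. *Dusp6* is shown for chr10:99262981-99263230, *Spred1* for chr2:117120821-117121070 and *Fgf4* for chr7:144861136-144861385.
Dusp6: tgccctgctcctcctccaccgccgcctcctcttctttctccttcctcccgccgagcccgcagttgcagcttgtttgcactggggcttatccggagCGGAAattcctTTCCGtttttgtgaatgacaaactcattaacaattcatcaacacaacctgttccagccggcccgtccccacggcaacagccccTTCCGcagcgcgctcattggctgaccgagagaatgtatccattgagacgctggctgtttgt
Spred1: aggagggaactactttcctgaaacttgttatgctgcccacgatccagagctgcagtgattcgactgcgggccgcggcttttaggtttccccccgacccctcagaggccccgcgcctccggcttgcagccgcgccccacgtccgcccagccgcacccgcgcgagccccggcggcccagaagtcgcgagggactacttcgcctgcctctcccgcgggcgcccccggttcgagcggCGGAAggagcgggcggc
Fgf4: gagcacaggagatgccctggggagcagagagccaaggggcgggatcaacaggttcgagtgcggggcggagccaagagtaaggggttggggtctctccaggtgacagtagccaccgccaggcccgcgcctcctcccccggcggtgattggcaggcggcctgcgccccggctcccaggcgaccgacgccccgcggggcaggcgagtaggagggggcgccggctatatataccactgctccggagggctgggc
The *Dusp6* stretch held 3 matches, that of *Spred1* held 1, and that of *Fgf4* held 0. Of all 32851 promoters in the table, 25.2% held the letters on either strand. The table covered 5 of the 10 genes with 6 promoters, and 2 of these 6 had a match. The longer CCGGAA was found in 0 of the 6 and in 12.0% of all promoters, and the shorter CGGAA was chosen after that. The G-rich letters GGGAGGG, of the kind that MAZ and PATZ1 bind, occurred in 1 of the 6, a promoter of *Etv5*, and in 19.7% of all promoters. A match of letters is a description and not a bound site.

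Levels between genes were compared as normalized counts per kb of exon, over WT (mean ± SD, n = 3). *Etv5*, an ETS factor induced by ERK, was highest at 2509 ± 54.7, and its level over all 6 libraries, 2598, was at the 97.2 percentile of 19167 genes with a count. *Fgf4*, the main FGF of naive ESCs, followed with 1116 ± 60.7. *Etv4*, the closest relative of *Etv5* here, had 966 ± 111, and *Spry2*, which encodes a Sprouty inhibitor, had 924 ± 126. Across the 6 libraries, the ranges of *Fgf4* and *Etv4*, and of *Etv4* and *Spry2*, overlapped, so these neighbours in the order did not differ beyond their spread.

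Below a gap came *Spry4*, a second Sprouty gene, with 432 ± 99.6 per kb, and *Dusp6*, the phosphatase that acts on ERK in the cytoplasm, with 270 ± 57.0. Their ranges overlapped across all 6 libraries, with *Dusp6* at 389 ± 124 in KO. *Spred1*, a membrane-bound inhibitor of RAS signalling, had 144 ± 13.6, and *Fgfr1*, the main FGF receptor of ESCs, had 113 ± 8.99. With the longest transcript in place of the union of exons, *Fgfr1* was at 222 and moved above *Spred1* at 163, and *Etv4* was at 1251 and moved above *Fgf4* at 1176. *Dusp4*, a nuclear MAP kinase phosphatase, was far lower, at 12.1 ± 3.90. *Egr1*, an immediate early zinc finger factor, was near the floor, at 1.30 ± 0.10 per kb. Over all 6 libraries it was at 1.03 and the 16.1 percentile. Over the 6 libraries *Dusp4* was at the 40.7 percentile of genes, while *Etv5*, *Fgf4*, *Etv4* and *Spry2* were each above the 92 percentile. Whether any of them was lowered by the inhibitor cannot be told from libraries that all received it.

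**Figure D1:**
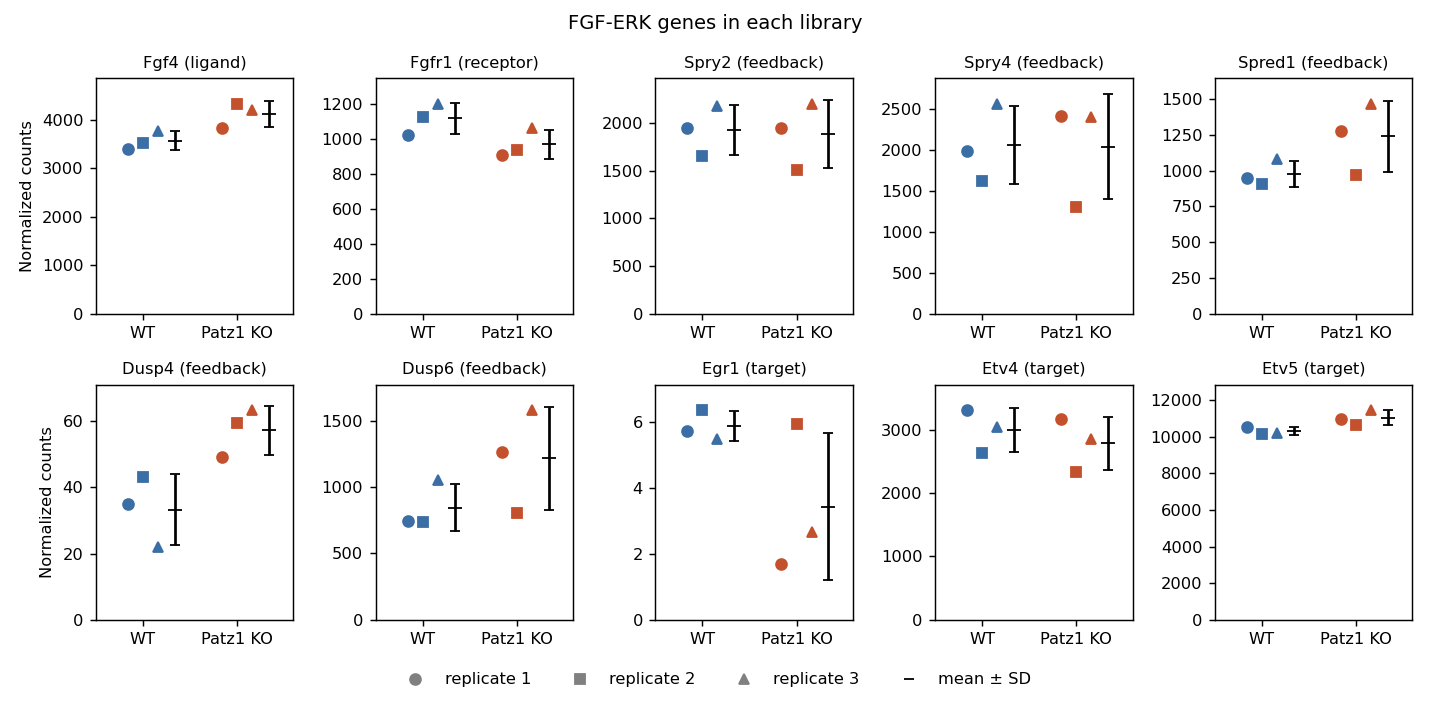
Normalized counts (y axes, from 0) of the 10 genes in the 3 WT (blue) and 3 *Patz1* KO (orange) libraries, with circles, squares and triangles for replicates 1, 2 and 3 and black bars for mean ± SD. The genotypes did not overlap for *Fgf4*, *Dusp4* and *Etv5*, and in *Spry2*, *Spry4*, *Spred1*, *Dusp6*, *Etv4* and *Etv5* the square of replicate 2 is the lowest point of each genotype.

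To ask whether FGF-ERK genes differ when PATZ1 is lost, KO was compared with WT across all genes with the Wald test of DESeq2 and a Benjamini-Hochberg adjusted p of 0.05. DESeq2 called 0 of the 9 with an adjusted p, and 4 had an unadjusted p under 0.05. Of all genes, DESeq2 called 7.49%, and 13.9% had an unadjusted p under 0.05. edgeR and limma-voom also called 0 of 10, where they called 5.46% and 5.33% of all genes. They had 4 and 5 of the 10 at an unadjusted p under 0.05, against 17.7% and 18.8% of all genes. The median log2 fold change of the 9 was 0.10, against 0.0087 over the 15309 genes tested. WT and KO values were fully apart for 3 of the 10, against 25.6% of all genes tested.

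Replicate numbers were taken to pair the libraries (correlations under processing). With the replicate block, 3 of 9 passed, *Dusp6*, *Spred1* and *Fgf4*, each higher in KO. With the block, 14.6% of all genes were called, and 6.68% were called as higher in KO. Within pairs of equal replicate number, 5 of the 10 genes (*Fgf4*, *Spred1*, *Dusp4*, *Dusp6* and *Etv5*) were higher in KO in all 3 pairs. Of the 15309 genes with an adjusted p, 27.2% were. Lower in all 3 pairs were 3 (*Fgfr1*, *Etv4* and *Egr1*), against 26.1%. Of these, *Egr1* had no adjusted p and was near the floor, and the direction of *Etv4* depended on the scaling of its chromosome (both below). Among the 5 that were higher, *Dusp4* was sparse.

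**Figure D2:**
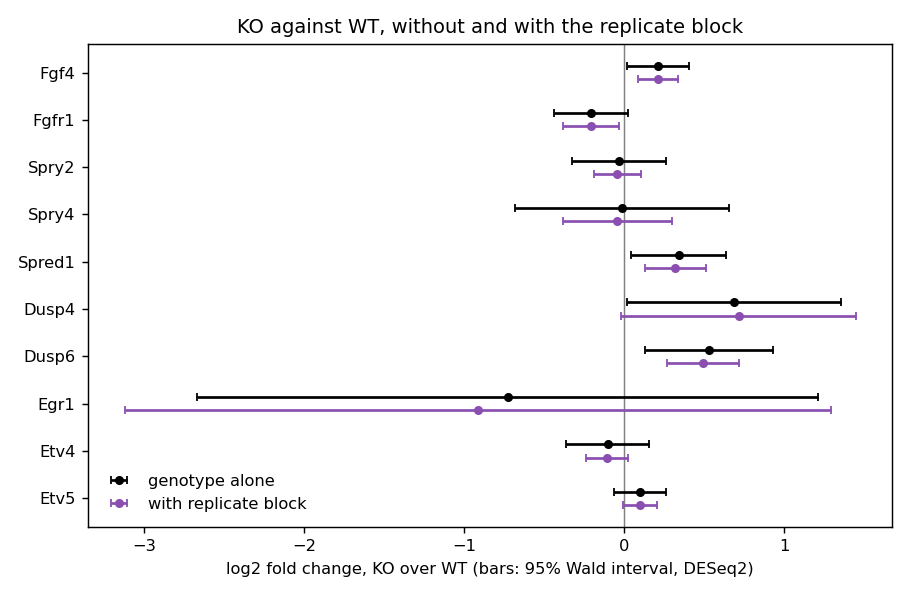
Log2 fold change of KO over WT (x axis) for each gene, with the 95% Wald interval of DESeq2, for the model of genotype alone (black) and with the replicate block (purple). The intervals of *Dusp6*, *Spred1* and *Fgf4* narrow with the block and lie above 0 in both, and *Egr1* has the widest interval.

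*Fgf4* (chromosome 7, 144847367 to 144865243, plus strand, GRCm38), the ligand, stood at 3395, 3523 and 3776 normalized counts in WT and at 3829, 4331 and 4191 in KO. Each KO library lay above each WT library, though the lowest KO value was close to the highest WT value. DESeq2 put the log2 fold change at 0.21 (SE 0.098, adjusted p 0.218). With the block it was 0.21 (SE 0.064, adjusted p 0.00964), and KO was higher in 3 of 3 pairs, by 0.17, 0.30 and 0.15 on the log2 scale. With the block, the call was lost when pair 1, 2 or 3 was left out (adjusted p 0.0923, 0.610 and 0.0863).

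*Fgfr1* (chromosome 8, 25513654 to 25575718, plus strand), the receptor, went the other way. It stood at 1025, 1124 and 1202 normalized counts in WT and at 909, 935 and 1062 in KO. The groups overlapped through KO replicate 3, but KO was lower in each pair, by -0.17, -0.27 and -0.18 (log2). KO over WT, the log2 fold change by DESeq2 was -0.21 (95% interval -0.44 to 0.02, adjusted p 0.374, and 0.101 with the block). With the block, edgeR and limma-voom called *Fgfr1* as lower in KO (adjusted p 0.0105 and 0.0246), and these tools also called 21.4% and 19.4% of all genes. An antisense transcript shares 164 bases of exon with *Fgfr1*, and the use of strand in counting was not given in the sources used here.

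Among the feedback inhibitors, *Dusp6* (chromosome 10, 99263231 to 99267489, plus strand) encodes an ERK phosphatase. It stood at 748, 737 and 1051 normalized counts in WT and at 1262, 807 and 1583 in KO. Replicate 2 of KO lay among the WT values, and the other KO libraries lay above all of WT. KO held 144% of the WT mean, a log2 fold change of 0.53 by DESeq2 (SE 0.20 and adjusted p 0.0974). With the block it was 0.49 (SE 0.11, adjusted p 0.000315), and the pairs differed by 0.75, 0.13 and 0.59 (log2). Leaving out KO replicate 2 gave a log2 fold change of 0.76 (adjusted p 0.00198) without the block, where 3.8% of all genes were called. Leaving out KO replicate 3 instead gave 0.31 (adjusted p 0.485). With the block, the call held without pair 2 (adjusted p 0.00017) and was lost without pair 1 (0.187) or pair 3 (0.538).

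*Spred1* (chromosome 2, 117121374 to 117182279, plus strand) had a similar order of libraries. It stood at 949, 904 and 1082 normalized counts in WT and at 1279, 971 and 1469 in KO. Again KO replicate 2 fell within the WT range and the other KO libraries did not. DESeq2 put the log2 fold change at 0.34 (SE 0.15, adjusted p 0.182) and with the block 0.32 (SE 0.096, adjusted p 0.00964), with pairs at 0.43, 0.10 and 0.44. Without KO replicate 2 it was 0.49 (adjusted p 0.0227, no block), and without KO replicate 3 it was 0.21 (adjusted p 0.537, no block). With the block, the call held without pair 2 (adjusted p 0.0422) and was lost without pair 1 (0.385) or pair 3 (0.244).

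*Dusp4* (chromosome 8, 34807297 to 34819894, plus strand) was sparse, with 61, 61 and 8 raw counts in WT and 87, 100 and 24 in KO. As normalized counts these were 34.9, 43.1 and 21.9 in WT and 49.1, 59.3 and 63.4 in KO, so that the groups did not overlap. KO over WT, the log2 fold change by DESeq2 was 0.68 (95% interval 0.014 to 1.35, adjusted p 0.273, and 0.222 with the block). It was higher in KO in 3 of 3 pairs, by 0.48, 0.45 and 1.49, the last from the shallow pair. The block of edgeR called it (adjusted p 0.0323), and that of limma-voom did not (0.0943).

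*Spry2* and *Spry4*, the Sprouty inhibitors, did not separate by genotype. *Spry2* (chromosome 14, 105891947 to 105896819, minus strand) stood at 1948, 1655 and 2180 normalized counts in WT and at 1951, 1502 and 2201 in KO. Replicates 1 and 3 were nearly equal between genotypes, and the log2 fold change was -0.03 (95% interval -0.32 to 0.26, adjusted p 0.953, DESeq2). *Spry4* (chromosome 18, 38586247 to 38601415, minus strand) had 1982, 1625 and 2563 in WT and 2417, 1297 and 2394 in KO. Its pairs differed by 0.29, -0.32 and -0.10 (log2), so no direction was shared. The log2 fold change was -0.01 (95% interval -0.68 to 0.65, adjusted p 0.992), an interval too wide to tell a difference in either direction. With the block the adjusted p was 0.802 for *Spry2* and 0.923 for *Spry4*.

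The ETS targets did not pass the test in either model. *Etv5* (chromosome 16, 22381309 to 22439719, minus strand) stood at 10551, 10145 and 10183 normalized counts in WT and at 10953, 10660 and 11469 in KO. The groups did not overlap, at 107% of the WT mean in KO. DESeq2 put the log2 fold change at 0.10 (95% interval -0.07 to 0.26, adjusted p 0.662, and 0.266 with the block). Of the 10 genes it varied least, with 1.13-fold between the highest and the lowest library.

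*Etv4* (chromosome 11, 101769742 to 101785371, minus strand) stood at 3317, 2632 and 3042 normalized counts in WT and at 3170, 2341 and 2859 in KO. KO was lower in each pair, by -0.07, -0.17 and -0.09 (log2), and the groups overlapped. KO over WT, the log2 fold change by DESeq2 was -0.10 (95% interval -0.36 to 0.16, adjusted p 0.814, and 0.322 with the block). *Etv4* lies on a chromosome that was lower in KO as a whole: over 960 genes of chromosome 11 with a mean of at least 50 normalized counts, the median log2 fold change was -0.26. With chromosome 11 centred in each library, *Etv4* was at 0.16 (adjusted p 0.663, and 0.114 with the block), so that its direction depended on the scaling.

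*Egr1* (chromosome 18, 34859823 to 34864984, plus strand) could not be judged at this depth. It had 10, 9 and 2 raw counts in WT and 3, 10 and 1 in KO, and 3 of the 6 libraries were at or under the floor of 3 counts, which covers counting error only. DESeq2 put the log2 fold change at -0.73 (95% interval -2.67 to 1.21, unadjusted p 0.461), and DESeq2 gave no adjusted p. It was -1.56 without KO replicate 2 and -0.32 without KO replicate 1. Other early response genes, which also respond to handling of cells, were read beside it. Of 9 such genes, among them *Fos*, *Jun*, *Ier2* and *Hspa1b*, 0 passed and 1 had an unadjusted p under 0.05 (DESeq2), and their sum ranged from 4085 to 5410 normalized counts in WT and from 4487 to 5575 in KO. With the block, 2 of the 8 early response genes with an adjusted p passed (14.6% over all genes). They were *Ier2*, higher in KO (log2 fold change 0.24, adjusted p 0.0177), and *Hspa1b*, lower (-0.67, adjusted p 0.0276). The part of handling in the values of the FGF-ERK genes was not tested.

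Replicate number held a larger share of the spread than genotype in several of these genes. The sum of squares of log2(normalized count + 1) over the 6 libraries was split into genotype, replicate number and the rest, as a description chosen after the values were seen. Replicate number has more levels than genotype, so its share tends to be larger even where neither matters. The shares of replicate number and genotype are therefore not on an equal footing. For *Spry2*, 95.9% lay with replicate number and 1.05% with genotype. *Etv4* had 88.2% and 10.1%, and *Spry4* 86.8% and 0.416%. *Dusp6* was divided, with 54.1% on replicate number and 35.6% on genotype, as was *Spred1* with 48.5% and 41.8%. Genotype held the larger share for *Fgf4* (68.9%), *Etv5* (65.8%) and *Fgfr1* (53.4%). Over 11524 genes with a mean of at least 50, the medians were 49.2% for replicate number and 24.4% for genotype.

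The lowest library of each genotype was replicate 2 for 6 of the 8 genes with a mean of at least 50: *Spry2*, *Spry4*, *Spred1*, *Dusp6*, *Etv4* and *Etv5*. This order was seen in 16.2% of all 11524 genes and in 10 of 54 other genes of the pathway. *Fgf4* and *Fgfr1* instead had replicate 1 lowest in both genotypes, as did 11.8% of all 11524 genes. Replicate 2 was not shallow, with 37573923 counts in WT and 46724594 in KO, and its share of *Rn45s* was 2.50% to 3.03%. *Spry4* differed from its mean over the 6 libraries by -0.29 in WT replicate 2 and -0.62 in KO replicate 2 (log2), and by 0.37 and 0.27 in WT and KO replicate 3. What differed between the replicates was not given in the sources used here, and its part in these values was not tested.

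**Figure D3:**
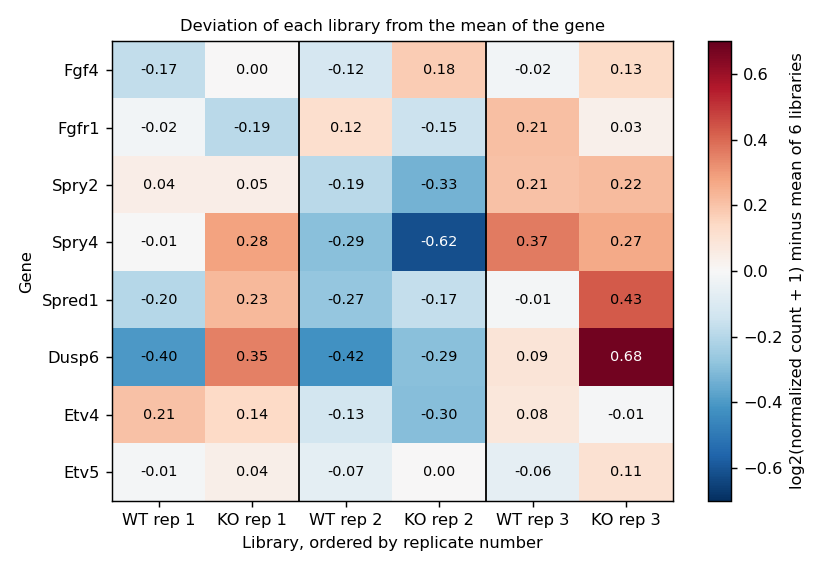
Log2(normalized count + 1) of each library minus the mean of the 6 libraries, for the 8 genes with a mean of at least 50 normalized counts, with libraries ordered by replicate number (columns) and red for above and blue for below the mean. *Spry2*, *Spry4*, *Spred1*, *Dusp6* and *Etv4* are below their mean in both libraries of replicate 2, while *Fgf4* is below its mean in each WT library and above it in each KO library.

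The rest of the pathway was read from a list of 80 other genes, of which 66 had an adjusted p. Of these, 4 passed the threshold (DESeq2, 7.49% over all genes), 2 higher in KO (2.7% over all genes) and 2 lower (4.78%), and their median log2 fold change was 0.0019. With the replicate block, 12 of 64 passed, 7 higher (6.68% over all genes) and 5 lower (7.95%).

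Of 17 other FGF ligand genes, 7 had an adjusted p and 1 passed. All 7 had a negative log2 fold change (median -0.32), as had 7411 of the 15309 genes tested. The normalized counts of the list summed to 689 to 723 in WT and to 595 to 602 in KO. *Fgf1*, which encodes an FGF that binds all FGF receptors, stood at 13.2, 51.5 and 41.1 normalized counts in WT and at 2.26, 8.30 and 10.6 in KO. The groups did not overlap, and the log2 fold change was -2.46 by DESeq2 (SE 0.66 and adjusted p 0.00480). The call was lost without WT replicate 2 (adjusted p 0.213) or KO replicate 1 (0.136), and with limma-voom. *Fgf17* had the highest level per kb of these ligands, 165 on average, well under the 1202 of *Fgf4*. *Fgf5*, a marker of cells that leave the naive state, had at most 7.93 normalized counts in any library.

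Of 11 genes for other receptors, coreceptors and heparan sulfate enzymes, 1 passed. *Fgfr2*, a second receptor gene, rose from 20.6, 38.1 and 38.3 normalized counts in WT to 52.5, 87.2 and 81.9 in KO (DESeq2: log2 fold change 1.23, SE 0.36, adjusted p 0.0131). Even in KO its mean of 73.9 normalized counts was small beside the 969 of *Fgfr1*. Its call was lost without WT replicate 1 (adjusted p 0.255), KO replicate 2 (0.251) or KO replicate 3 (0.0652). *Hs6st1*, a sulfotransferase of heparan sulfate chains, had the highest level of this list, 134 per kb, and did not pass (log2 fold change -0.26, adjusted p 0.303). With the block *Ndst1*, an enzyme of heparan sulfate synthesis, also passed, lower in KO (log2 fold change -0.36, adjusted p 0.0354).

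Of 22 genes of the cascade, from adaptor to kinase, 1 passed, and their median log2 fold change was 0.04. *Sos2*, an activator of RAS, fell from 188, 170 and 194 normalized counts in WT to 113, 133 and 114 in KO (DESeq2: log2 fold change -0.60, SE 0.19, adjusted p 0.0319). In the 6 fits that left out a library its adjusted p ran from 0.0712 to 0.264. *Gab1*, the adaptor with the highest level per kb of this list, passed with the block alone (log2 fold change -0.23, adjusted p 0.180 without and 0.000576 with it). So did *Braf*, a RAF kinase gene, higher in KO (0.26, adjusted p 0.417 without and 0.0101 with it).

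Of 12 other feedback genes with an adjusted p, 0 passed (DESeq2, with 3 at an unadjusted p under 0.05), and with the block 3 did (14.6% over all genes). Those 3 were *Dusp9* and *Rasa2*, higher in KO, and *Nf1*, lower. *Dusp9*, a phosphatase gene of X that is abundant in ESCs, averaged 2842 ± 317 (SD, n = 3) normalized counts in WT against 3415 ± 358 (SD, n = 3) in KO (DESeq2: log2 fold change 0.26, adjusted p 0.192, and 0.000669 with the block). *Nf1*, a RAS inhibitor, lies on chromosome 11 (log2 fold change -0.29, adjusted p 0.00651 with the block), and all 5 of the 80 genes that lie on that chromosome were lower in KO, with a median of -0.29. With chromosome 11 centred, *Nf1* was no longer called under the block.

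Of 14 other target genes with an adjusted p, 1 passed. *Elk3*, an ETS factor that ERK phosphorylates, rose from 114, 106 and 98.6 normalized counts in WT to 152, 213 and 166 in KO (DESeq2: log2 fold change 0.73, SE 0.21, adjusted p 0.0127). It missed the threshold without WT replicate 1 (adjusted p 0.0713), WT replicate 2 (0.119) or KO replicate 2 (0.305). *Mcl1*, a survival gene, had the highest level per kb of the list and a log2 fold change of 0.08 (adjusted p 0.756). *Srf*, a partner of the ELK factors, passed with the block, higher in KO (log2 fold change 0.31, adjusted p 0.0324).

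**Figure D4:**
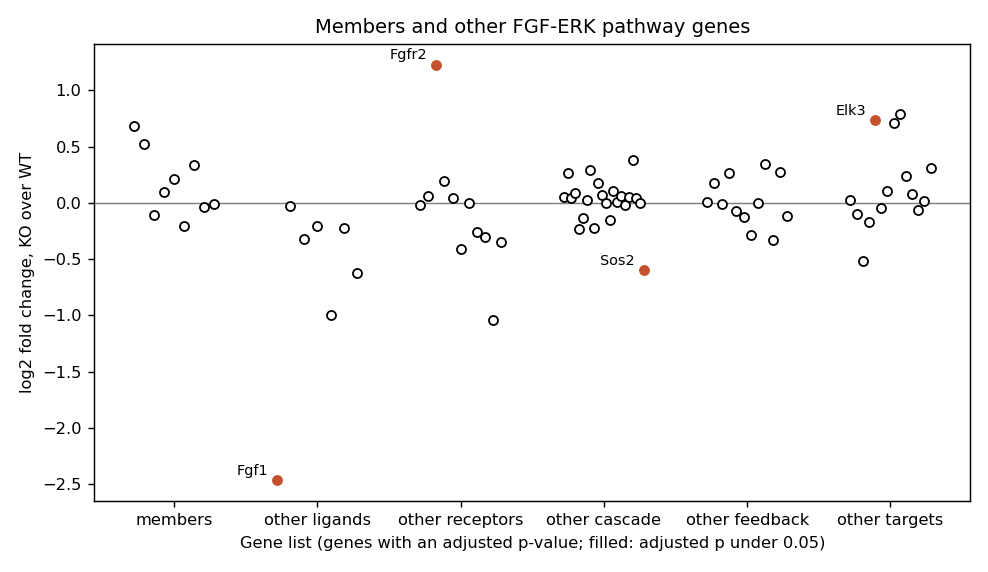
Log2 fold change of KO over WT (y axis) for the genes with an adjusted p-value among the 10 FGF-ERK genes described here (members) and in the other pathway lists, with filled orange points for an adjusted p under 0.05 (DESeq2, genotype alone). Only *Fgf1*, *Fgfr2*, *Sos2* and *Elk3* are filled, and none of the members are.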

How the data were processed

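RNA was measured in 3 WT and 3 *Patz1* KO libraries of E14 ESCs, grouped by sample titles. Stranded libraries were made after removal of ribosomal RNA. For each library the authors deposited a file of raw counts per gene symbol, not normalized. Their methods name Bowtie 2 and mm10, and the submitters' processing notes also list TopHat2 2.1.1, Bowtie2 2.3.1.0, featureCounts 1.6.2 and DESeq2. Annotation, strand setting and duplicate handling were not given in the sources used here.

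Differential expression was tested on all 23420 symbols with the two-sided Wald test of DESeq2 (version 1.42.0), as in the methods of the study, with median-of-ratios size factors, default independent filtering, no shrinkage and Benjamini-Hochberg adjustment. Intervals are 95% Wald intervals and cover the spread between these libraries. Positions and exon lengths came from GENCODE M21, and promoters from RefSeq. *Hras* was read under its older symbol *Hras1*. Alternatives were edgeR (4.0.16, quasi-likelihood), limma-voom (3.58.1), TMM size factors, a filter of 10 counts in 3 libraries, no independent filtering, the replicate block, leaving out libraries, and centring chromosome 11.

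Genes named are the 10 members, *Patz1*, pathway genes past the threshold, the highest per kb of each pathway list, and quality and marker genes. *Fgf5*, *Nf1*, *Rasa2*, *Ndst1*, *Braf*, *Srf*, *Nes*, *Tdgf1* and *Foxa2* were named after their values were seen. A list member that passed with the block is not reported here. The members and lists were chosen with earlier results of these data known.

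Replicate numbers in the titles were taken to pair the libraries. Each library was taken as its difference from the mean of its genotype, and WT and KO libraries with equal numbers then had correlations of 0.469, 0.619 and 0.684 over 11524 genes. Those with unequal numbers had correlations from -0.542 to 0.138. As each library counts in the mean of its own genotype, these correlations depend on each other. All 15 pairs of libraries differed beyond sampling noise (lowest chi-square / degree of freedom, 9.50). The study calls the libraries biological replicates. A floor of 3 counts was 1.69 to 8.21 normalized counts per library. The code was tested on simulated counts.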

Additional observations from a re-analysis of the deposited data

How the results depend on the processing

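The number of FGF-ERK genes past the threshold, 0 with DESeq2, was also 0 with edgeR, limma-voom, TMM size factors, the count filter, no independent filtering, both replicate 3 libraries left out and chromosome 11 centred. It was 3 of 9 with the replicate block, and 3 of 9 with the block and chromosome 11 centred. Over all genes these fits called 2131 of 14567 and 1747 of 15311. The number ranged over 0 to 2 when a single library was dropped. It was 2 of 10 without KO replicate 2, where 590 of 15525 were called over all genes. Alternatives added after the data were seen gave 5 of 10 with the block in edgeR (21.4% over all genes) and 4 of 10 in limma-voom (19.4%). With the block in DESeq2 they gave 2 of 9 with pair 2 left out (578 of 13809 over all genes). With pair 1 or pair 3 left out they gave 0 of 9 (791 of 13522 and 1201 of 14824 over all genes). The number of other pathway genes, 4 of 66, was 12 of 64 with the replicate block and 11 of 66 with the block and chromosome 11 centred. It was 19 of 78 with the block in edgeR and 19 of 78 in limma-voom (21.4% and 19.4% over all genes). With the block and pair 2 left out it was 0 of 64 (DESeq2). The calls over all genes under these fits are those given above. Without a single library the number ran from 1 to 5, while 583 to 1341 genes were called over all genes. It was 1 without replicate 1 of WT or replicate 2 of either genotype, and 2 without KO replicate 1. The cause was not tested.

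The direction turned for *Spry2* without WT replicate 3 (0.06), without KO replicate 2 (0.11) and with the block and pair 2 left out (0.0094). It turned for *Spry4* without WT replicate 3 (0.17), without KO replicate 2 (0.23), with both replicate 3 libraries left out (0.042) and with the block and pair 2 left out (0.11). It turned for *Etv4* without KO replicate 2 (0.012), with chromosome 11 centred (0.16) and with that and the block (0.16). Dropping a single library gave log2 fold changes from -0.15 to 0.11 for *Spry2*, from -0.16 to 0.23 for *Spry4* and from -0.21 to 0.012 for *Etv4*. The other 7 genes kept their direction under every alternative run. Of 199 values of the 10 genes under alternatives, 170 kept direction and side of the threshold and 19 passed it. Replicate 3 is shallow, and *Egr1* and *Dusp4* are limited by their counts in every library.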
